A study of Mus musculus with 8 samples.

Results

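Oxidative phosphorylation (OXPHOS) subunits were described in mouse liver mesenchyme: the nuclear genes of complexes I to V, taken by their protein-coding symbols (Nduf, Sdh, Uqcr, Cox and Atp5 families), and the subunit genes of the mitochondrial genome (symbols starting mt-Nd, mt-Co, mt-Cytb or mt-Atp). The rule found 90 of the 30395 gene identifiers listed, 81 nuclear and 9 mitochondrial. The rule goes by symbols alone. Of these, 80 nuclear and 8 mitochondrial genes reached 1 CPM (a read count scaled to the library's total) or more in 2 or more libraries and were tested; Cox7b2 and mt-Co3 did not. The mitochondrial genome has 13 protein-coding genes, and mt-Co2, mt-Atp8, mt-Atp6 and mt-Nd4l were not analysed here, nor was Cox8c.

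The study compared a pair of sorted populations, Gli1+ peribiliary mesenchymal cells, which lie around the bile ducts, and hepatic stellate cells, the vitamin A-storing pericytes of the sinusoid. Each population was taken without injury and 5 d after the bile duct was tied (bile duct ligation, BDL), an operation that blocks bile flow, and each of the 4 groups had 2 libraries. Cells were freed from perfused livers with enzymes (pronase, collagenase), enriched on a gradient and sorted, and their RNA was amplified with the full-length SMART-Seq2 method. All mice were 8 weeks old and shared the genotype Gli1:CreER+/-; Ai9+/- on a mixed background (C57BL/6, SWR/J); a tamoxifen-dependent Cre under the Gli1 gene drives a red reporter in this genotype, and uninjured mice carried the same alleles as injured ones. Whether replicates 1 and 2 are different animals is not given in the labels; a p-value here measures only the spread between libraries, which may be technical. In these bulk samples, fewer cells of a type and less RNA per cell cannot be told apart.

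OXPHOS moves electrons from NADH (at complex I) and succinate (at complex II) through complex III and cytochrome c to oxygen at complex IV, pumps protons out of the mitochondrial matrix, and lets them return through complex V, the ATP synthase. Complex II is built from nuclear genes alone; the other complexes also need subunits made inside the mitochondrion from its own small genome, which is transcribed from both strands into long precursors that are then cut into single RNAs. Several complex IV subunits exist as a common isoform and as an isoform known from muscle or testis. Quiescent stellate cells are known for their retinoid droplets, and bile duct ligation drives liver mesenchyme towards matrix production.

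Library totals ran from 11261775 to 19180370 reads, and 3 reads corresponded to 0.156 to 0.266 CPM. The labels were checked against marker genes. The 10 stellate markers summed to 23103 to 67040 CPM in stellate libraries and 819 to 1877 CPM in Gli1+ libraries, while the 10 portal fibroblast markers summed to 2853 to 8849 CPM in Gli1+ and 29.2 to 131.5 CPM in stellate libraries. Gli1 itself was at 14.9, 7.59, 6.61 and 2.39 CPM in the Gli1+ libraries and at 0, 0, 0.0584 and 0 CPM in the stellate ones. Markers of other cells were present as well. All 8 cholangiocyte markers were listed, and their sum was 3152 to 15114 CPM in Gli1+ libraries against 3.75 to 755.9 CPM in stellate libraries. After BDL most of that sum was Spp1, at 10259 and 5167 CPM (Gli1+) and 177.1 and 743 CPM (stellate). All 8 mesothelial markers were listed too, at 3401 to 9248 against 4.1 to 77.8 CPM. In stellate BDL libraries most of this was the keratins Krt8 (12.3 and 20.6 CPM) and Krt18 (29.2 and 50.7 CPM). These keratins were at 1645 and 1918 CPM in replicate 1 of Gli1+ cells after BDL. Msln was at 0.73 to 1.02 CPM in stellate libraries. The 15 hepatocyte markers summed to 80.4 to 1505 CPM in uninjured libraries and 2090 to 19455 CPM after BDL, the highest being replicate 2 of Gli1+ cells after BDL. The 12 macrophage markers summed to 12464 CPM in replicate 1 and 69.4 CPM in replicate 2 of uninjured stellate cells, and to 1315 to 3880 CPM in the other libraries.

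Several mitochondrial genes have a near-identical copy in the nuclear genome, which bears on how far their values can be read. On GRCm38 a stretch of chromosome 1 (chr1:24611535-24616197, minus strand) is annotated with 7 unprocessed pseudogenes that copy neighbouring mitochondrial genes. The share of a gene's 50-base windows that also occur in a transcript of another gene was 100% for mt-Co2, 99.9% for mt-Co3, 99.5% for mt-Atp6, 98.8% for mt-Nd4l and 98% for mt-Nd3. It was 62.2% for mt-Nd4, 51.1% for mt-Co1, 8.19% for mt-Nd2 and 7.61% for mt-Nd5, and 0 for mt-Nd1, mt-Nd6, mt-Cytb and mt-Atp8. Only annotated transcripts were searched, so a share of 0 does not exclude a copy in sequence without annotation. mt-Atp8 follows mt-Co2 and precedes mt-Atp6 on the mitochondrial genome, and both of these have a copy in the chromosome 1 stretch. mt-Co3, the third catalytic-core subunit of complex IV (chrM:8607-9390, plus strand), and its copy Gm28437 (chr1:24613189-24613971, minus strand) were identical over all 783 aligned bases; their opening 60 bases are printed because no read of that length could be placed in 1 of them alone, and no base is in capitals because none differs.
mt-Co3: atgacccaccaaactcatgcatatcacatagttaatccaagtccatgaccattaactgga
Gm28437: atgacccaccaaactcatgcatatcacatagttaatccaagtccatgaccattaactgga
mt-Nd3 and its copy Gm28438 differed at 1 of 345 aligned bases, T3C, counted from the start of mt-Nd3 with the mitochondrial base named before the position.

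mt-Co3 had no read in 7 of 8 libraries and 1 read (0.0584 CPM) in replicate 1 of stellate cells after BDL. mt-Nd3, a membrane subunit of complex I, was at 2.31 and 1.65 CPM in uninjured Gli1+ cells, 1.71 and 0.678 in their stellate counterparts, 8.06 and 8.26 in the Gli1+ BDL libraries, and 3.04 and 4.84 in the stellate BDL libraries. By contrast mt-Nd1, another complex I membrane subunit, whose windows were in no other annotated transcript, was at 1225 to 5951 CPM over the 8 libraries. The 7 pseudogenes had 0 to 14 reads each in any library. The treatment of reads that match several places is not given in the sources used here, and its part in the low values of mt-Co3 and mt-Nd3 was not tested. The levels of mt-Nd4 and mt-Co1, with part of their length shared, are uncertain too.

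**Figure D1:**
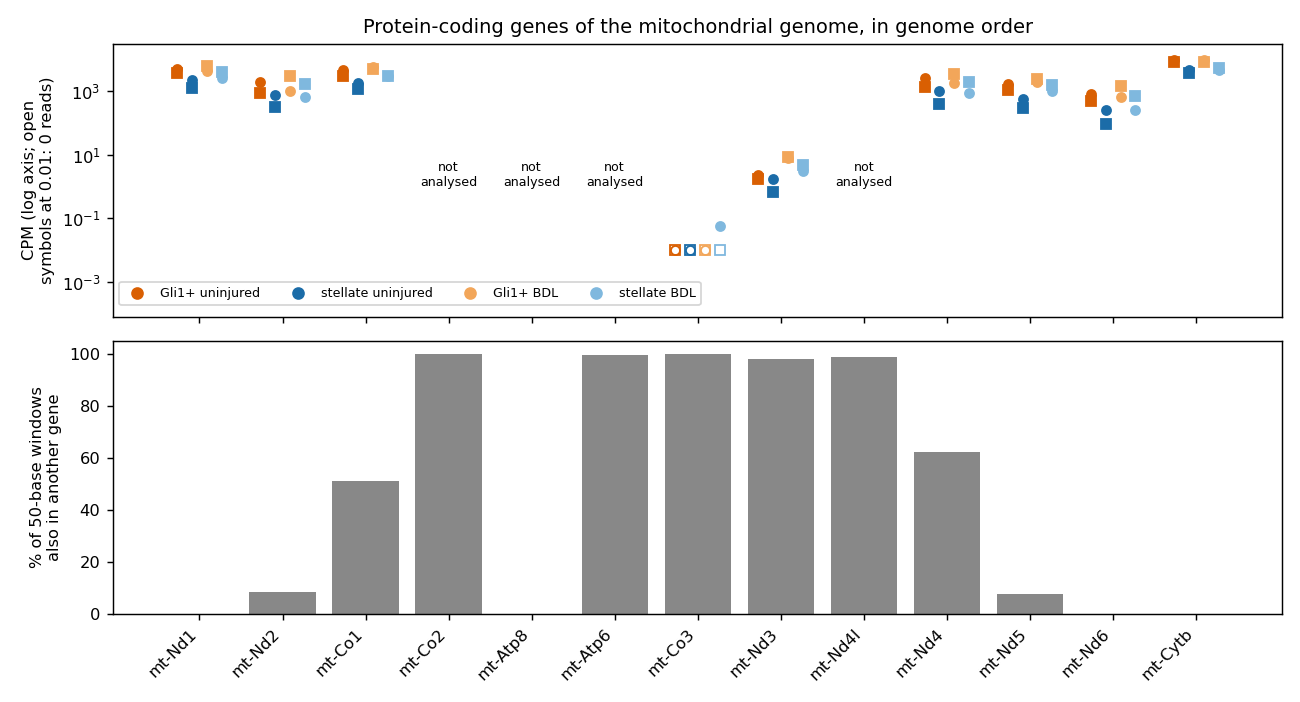
Upper panel, CPM on a log axis of each protein-coding gene of the mitochondrial genome in genome order, circles for replicate 1 and squares for replicate 2 of the 4 groups; lower panel, the percentage of each gene's 50-base windows also found in another gene. mt-Co3 and mt-Nd3, at 99.9% and 98%, lie at 0 to 8.26 CPM, and the other 7 genes analysed lie at 88.7 CPM or more.

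Among nuclear subunits, sharing and level were related weakly. Over the 75 commonly expressed nuclear subunits the percentage of shared windows and log2 CPM per kb of exon had a Pearson correlation of -0.46 and a Spearman correlation of -0.34 (n = 75 genes of the same 8 libraries, a description with no test). Atp5l, a subunit of the ATP synthase membrane part, shared 84.8% of its windows and averaged 8.28 CPM. Atp5g2, 1 of the 3 genes for the proton-carrying c subunit, shared 38.3% and averaged 0.834 CPM, whereas Atp5g3, which encodes the same mature protein and shared 0%, averaged 248.3 CPM and Atp5g1, at 11.1% shared, 9.12 CPM. Cox7c (23% shared) averaged 14.7 CPM and Ndufb4 (37% shared) 13.6 CPM. The levels of these genes are uncertain.

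**Figure D2:**
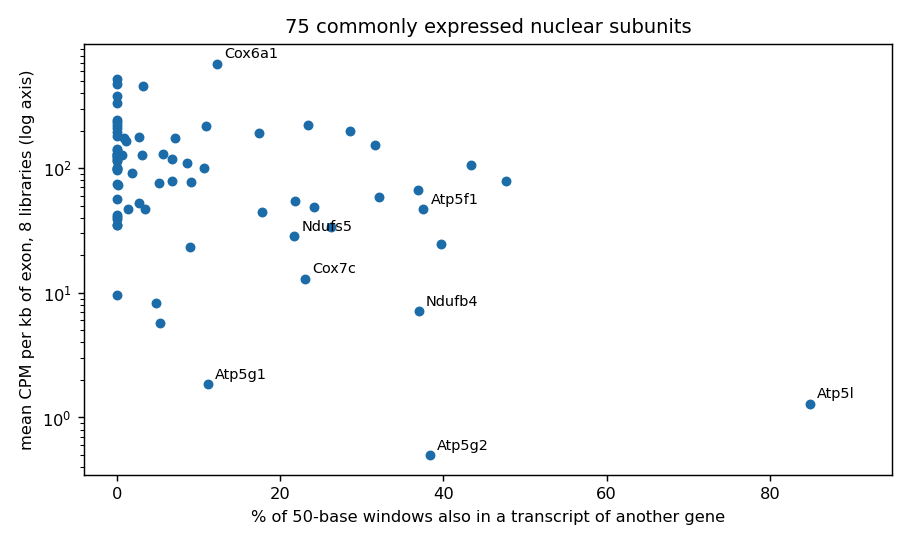
Mean CPM per kb of exon over 8 libraries (log axis) against the percentage of 50-base windows also found in a transcript of another gene, 1 point for each of 75 commonly expressed nuclear subunits. Atp5l lies furthest to the right, at 84.8%, and Atp5g2 lowest.

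Promoter sequence was read for the nuclear members from the RefSeq table (build GRCm38.p6), which held 68 of the 81 genes with 73 promoters, each from 250 bases before to 50 bases after the start. Motifs of factors known as regulators of respiratory genes were searched on both strands as exact letters. The palindromic NRF1 motif, spelled in capitals in the Cox6a1 promoter below, was in 6.85% of member promoters and 0.966% of all 32817 promoters of that length. The shares were 21.9% and 8.86% for the ETS motif CCGGAAG, bound by the factor GABP, 5.48% and 0.631% for the YY1 motif, and 2.74% and 0.424% for the motif of oestrogen-related receptors TCAAGGTCA. At least 1 of these was in 32.9% of member promoters and 10.5% of all promoters. A match is a description of letters, not a site. Of the 68 member genes, 24 had at least 1 match, and common subunits such as Cox7a2, Cox7b and Ndufa4 had none. The sequences below show a pair of restricted complex IV isoforms, Cox7a1 and Cox6b2, which differed most between the populations. Beside them is a pair of common subunits with a match, Cox6a1 and Uqcrh. Each sequence is the longest stretch of the 250 upstream bases without an annotated exon (GENCODE vM21), 5′ to 3′ on the gene's strand. Motif matches are in capitals: none in the first pair, an NRF1 match in Cox6a1 and an ETS match, read on the other strand, in Uqcrh.
Cox7a1, chr7:30183921-30184143, plus strand: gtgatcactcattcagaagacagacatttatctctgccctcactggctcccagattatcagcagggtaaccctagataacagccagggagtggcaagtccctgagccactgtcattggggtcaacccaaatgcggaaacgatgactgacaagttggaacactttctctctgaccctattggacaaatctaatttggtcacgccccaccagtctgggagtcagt
Cox6b2, chr7:4753095-4753225, minus strand: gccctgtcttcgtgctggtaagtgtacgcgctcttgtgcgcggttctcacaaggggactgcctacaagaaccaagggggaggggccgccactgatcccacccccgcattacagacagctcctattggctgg
Cox6a1, chr5:115348982-115349129, minus strand: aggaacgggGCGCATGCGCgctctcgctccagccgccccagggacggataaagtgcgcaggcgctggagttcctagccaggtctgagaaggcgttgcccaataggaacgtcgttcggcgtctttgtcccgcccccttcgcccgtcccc
Uqcrh, chr4:116075072-116075268, minus strand: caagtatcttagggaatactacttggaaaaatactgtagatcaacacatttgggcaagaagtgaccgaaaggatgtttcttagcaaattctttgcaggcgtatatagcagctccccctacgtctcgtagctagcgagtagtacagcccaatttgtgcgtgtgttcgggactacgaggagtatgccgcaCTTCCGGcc

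The summed level of the subunits was higher in Gli1+ cells than in stellate cells, before and after injury. The 81 nuclear subunits summed to 16867 and 14304 CPM in uninjured Gli1+ cells against 9604 and 7669 CPM in the stellate counterparts. With BDL the sums were 17600 and 17633 CPM (Gli1+) and 9811 and 11899 CPM (stellate). All 4 Gli1+ libraries lay above all 4 stellate libraries. The 9 mitochondrial subunits summed to 25776 and 18632 CPM in uninjured Gli1+ cells, and 11250 and 7136 CPM in their stellate counterparts; with BDL they summed to 24878 and 28572 CPM (Gli1+) and 13050 and 17846 CPM (stellate). Here, too, the populations did not overlap in either state, although the higher stellate BDL library, at 17846 CPM, came close to the lower uninjured Gli1+ library. These sums were not tested; 2 libraries against 2 cannot go below p = 0.33 in an exact permutation test.

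**Figure D3:**
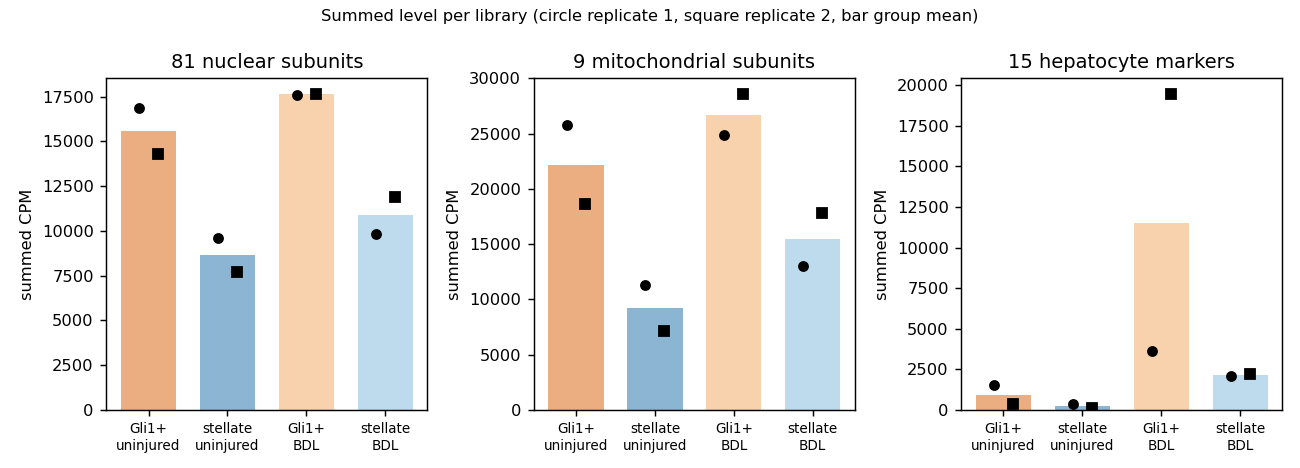
Summed CPM per library of the 81 nuclear subunits, the 9 mitochondrial subunits and, for comparison, 15 hepatocyte markers; circles are replicate 1, squares replicate 2 and bars the group mean. Gli1+ libraries lie at 14304 CPM or more in the nuclear panel and stellate libraries at 11899 or less, while the hepatocyte panel is dominated by 1 Gli1+ BDL library at 19455 CPM.

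The mitochondrial sum, which holds only the genes analysed, moved more than the nuclear sum. Its ratio to the nuclear sum was 1.53 and 1.3 for uninjured Gli1+ libraries and 1.17 and 0.93 for uninjured stellate libraries; with BDL it was 1.41 and 1.62 (Gli1+) and 1.33 and 1.5 (stellate). The uninjured stellate libraries had the lowest ratios, and after BDL the 2 populations overlapped. The mitochondrial ribosomal RNAs, which are not messengers, spread further, from 936.5 CPM in replicate 2 of uninjured stellate cells to 28550 CPM in replicate 2 of Gli1+ cells after BDL. That last library was also the one with the highest hepatocyte marker sum, 19455 CPM; the part of either in the mitochondrial values was not tested.

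In uninjured liver the difference between the populations was spread over all 5 complexes and was largest for 2 restricted isoforms. Of 80 nuclear subunits tested, 13 were higher in Gli1+ cells and 0 lower (limma on log2(CPM + 1), Benjamini-Hochberg adjusted p under 0.05 over 16446 genes); of all genes tested, 8.06% were called higher and 3.02% lower. Cholangiocyte and mesothelial marker sums were also higher in the Gli1+ libraries (3898 and 3152 against 6.91 and 3.75 CPM, and 3701 and 9248 against 4.1 and 9.75 CPM). Macrophage markers summed to 3880 and 1861 CPM in uninjured Gli1+ cells against 12464 and 69.4 CPM in replicates 1 and 2 of uninjured stellate cells. The part of these cells in the subunit values was not tested. The median log2 fold change was 0.83 over the nuclear subunits against 0.32 over all genes, and 77 of 80 were above 0 against 61.7% of all genes. The Gli1+ libraries both lay above both stellate libraries for 65 of 80 nuclear subunits and below both for 1, where 31.1% and 14.6% of all genes did so. Of the 8 mitochondrial subunits 1 was called higher, all 8 were above 0, the median was 1.41, and 7 did not overlap. Another scaling lowered all of these medians: with TMM (a scaling on the bulk of genes) the median of all genes fell to 0.12, that of the nuclear subunits to 0.58 and that of the mitochondrial subunits to 1.15, and 7 of 80 nuclear and 0 of 8 mitochondrial subunits were called higher, where 7.05% of all genes were called higher and 3.56% lower; the nuclear count then lay near the share of all genes.

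The count of 13 depended on the libraries and the tool. The nuclear median stayed above 0 under every alternative tried. The median of all genes was itself above 0, at 0.32 and, with TMM scaling, at 0.12. Leaving out replicate 1 or 2 of uninjured Gli1+ cells left 2 or 4 calls, and replicate 1 or 2 of uninjured stellate cells 23 or 5; without either Gli1+ BDL library there were 7, and without either stellate BDL library 4. The quasi-likelihood test of edgeR on the recovered reads called 2 of 80 nuclear subunits, Cox6b2 and Cox7a1, and 0 mitochondrial ones. Of all genes it called 5% higher and 2.4% lower. No common subunit named below as called thus passed with edgeR. Fitted on the 4 uninjured libraries alone, limma called only Cox7a1. With TMM scaling the common subunits called were Atp5d, Atp5o, Cox7b, Uqcr10 and Uqcrq. An unadjusted limma p under 0.05 was reached by 45 nuclear subunits, 44 of them higher, and 6 mitochondrial ones, and by 24% of all genes.

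Among the genes of complex I, the NADH dehydrogenase, 2 of 35 nuclear subunits were called higher, a smaller share than the 8.06% of all genes. Their median log2 fold change was 0.8. With TMM scaling 0 of the 35 were called. The 7 catalytic-core subunits had a median of 0.53 and no call, and the 28 accessory subunits, which surround the core, a median of 0.81. Ndufa6, an accessory subunit, was at 305.7 and 181.8 CPM in uninjured Gli1+ cells against 98.3 and 62.2 CPM in uninjured stellate cells, a log2 fold change of 1.58 ± 0.4 (SE, adjusted p 0.039, limma). Ndufb9, another accessory subunit, stood at 317.7 and 254.6 against 138.2 and 97.1 CPM, a log2 fold change of 1.29 ± 0.32 (adjusted p 0.0369, limma). Both genes kept the 2 populations apart, the lowest Gli1+ value being above the highest stellate value. The core subunits Ndufs1, which carries iron-sulphur clusters, and Ndufv1, which binds NADH, had log2 fold changes of 0.39 and 0.53 that did not pass the test. Ndufa9 is a case of spread within a group: uninjured stellate replicate 1 had 10.4 CPM and replicate 2 had 89 CPM, so its log2 fold change of 1.63 had an SE of 0.81.

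Complex II, the succinate dehydrogenase, also belongs to the citric acid cycle, and 1 of its 4 subunits was called higher. Of all genes 8.06% were called higher, and with TMM scaling 0 of the 4 subunits were. Sdhd, a membrane anchor, was at 225.5 and 251.7 CPM in uninjured Gli1+ cells against 87 and 104.5 CPM in uninjured stellate cells, a log2 fold change of 1.31 ± 0.32 (adjusted p 0.0324, limma). Sdha, the flavoprotein that oxidises succinate, was at 235 and 190.7 against 212.9 and 325.5 CPM, with no separation of the groups and a log2 fold change of -0.31 ± 0.31. Sdhb, the iron-sulphur subunit, and Sdhc, the other anchor, had log2 fold changes of 0.51 and 0.88 that did not pass. Complex II therefore had the only common nuclear subunit of the 75 with a value below 0 in this comparison.

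Complex III, the cytochrome bc1 complex, had 3 of 8 nuclear subunits called higher, all small accessory proteins. Of all genes 8.06% were called higher, and TMM scaling left 2 of these 3 calls. Uqcr10 was at 369.9 and 318 CPM in uninjured Gli1+ cells against 139 and 84 CPM in uninjured stellate cells, a log2 fold change of 1.66 ± 0.35 (adjusted p 0.0191, limma). Uqcrq and Uqcrh rose by 1.54 and 1.44 on the same scale. For all 8 subunits the Gli1+ libraries lay above the stellate libraries, where 31.1% of all genes did so. Uqcrc1, a large core-fold protein of the matrix arm, and Uqcrfs1, the Rieske iron-sulphur protein, had log2 fold changes of 0.31 and 0.55 that did not pass.

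Complex IV, cytochrome c oxidase, and complex V, the ATP synthase, had the highest medians among the common nuclear subunits, 1.15 over 11 genes and 1.05 over 17. In complex IV, Cox7b (1.54 ± 0.35), Cox8a (1.49 ± 0.39) and Ndufa4 (1.36 ± 0.36) were called higher, with adjusted p of 0.0266, 0.0415 and 0.0466 (limma). Ndufa4, once assigned to complex I and now placed in complex IV, was at 353.3 and 380.8 CPM in uninjured Gli1+ cells against 183.6 and 110.8 CPM in uninjured stellate cells. Cox6a1, the subunit of highest level per length among the nuclear members (689.9 CPM per kb over 8 libraries), was at 637.7 and 533.9 against 308.8 and 181.2 CPM, a log2 fold change of 1.3 ± 0.37 with an adjusted p of 0.0575 (limma). The common isoforms Cox7a2, Cox6b1 and Cox7a2l, the last a factor of supercomplex assembly, had values of 1.15, 0.97 and 0.5 that did not pass, as did Cox5a with 0.7.

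In complex V, Atp5d and Atp5o, which belong to the rotating stalk and to the peripheral stalk, were called higher, at 1.36 ± 0.28 and 1.34 ± 0.31 (adjusted p 0.0186 and 0.027, limma). Atp5d was at 386.4 and 305.1 CPM in uninjured Gli1+ cells against 130.2 and 137 CPM in uninjured stellate cells, with no overlap. The catalytic-head subunits Atp5a1 and Atp5b had log2 fold changes of 0.5 and 0.56 that did not pass. The 3 genes for the c subunit had log2 fold changes of 2.2 ± 0.73 for Atp5g1, 0.18 ± 0.51 for Atp5g2 and 1.61 ± 0.45 for Atp5g3, none past the test. The Atp5g2 libraries overlapped between the populations.

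**Figure D4:**
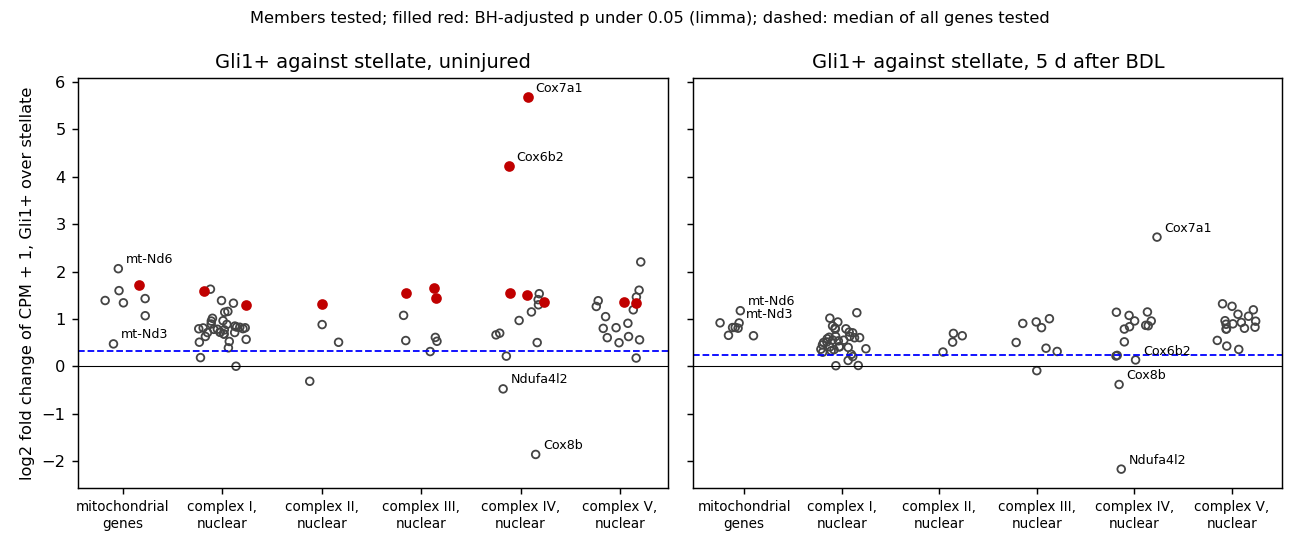
Log2 fold change of CPM + 1, Gli1+ over stellate, for every subunit tested, grouped by complex, in uninjured liver (left) and after BDL (right); filled red points have an adjusted p under 0.05 and the dashed line is the median of all genes, 0.32 and 0.23. Cox7a1 and Cox6b2 stand above the other members on the left, where 14 points are filled, and no point is filled on the right.

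Of the 5 restricted isoforms tested, 2 were called in uninjured liver, Cox7a1 and Cox6b2, and 0 after BDL. The shares of all genes called were 8.06% higher and 3.02% lower in uninjured liver, and 4.44% and 2.36% after BDL. Cox7a1, the heart and skeletal muscle isoform of subunit 7A (ENSMUSG00000074218, chr7:30184144-30186078), was at 88.2 and 30.2 CPM in uninjured Gli1+ cells against 0.0612 and 0 CPM in uninjured stellate cells. After BDL it was at 8.3 and 10 CPM in Gli1+ cells and 0.467 and 0.595 CPM in stellate cells. The Gli1+ libraries were thus above the stellate libraries in both states, and the Gli1+ BDL values lay below the uninjured ones, a difference that did not pass the test. The uninjured log2 fold change was 5.68 ± 0.81 (adjusted p 0.00348, limma), and it passed under all 15 alternative settings tried. In reads, 1522 in uninjured Gli1+ cells against 1 in uninjured stellate cells gave a ratio of CPM of 1878.5 with an exact 95% interval of 336.7 to 74246, which covers counting error only because PCR copies are not independent molecules; without replicate 1 or 2 of the Gli1+ cells the ratio was 1072.5 or 3133. Its common counterpart Cox7a2 was at 282.6 and 271.1 against 173.6 and 89 CPM in the same libraries.

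Cox6b2, the testis isoform of subunit 6B (ENSMUSG00000051811, chr7:4751792-4753094), was at 23.4 and 22.8 CPM in uninjured Gli1+ cells against 0.0612 and 0.574 CPM in uninjured stellate cells. After BDL the 2 populations met, at 10.6 and 5.69 CPM in Gli1+ cells and 8.06 and 6.12 CPM in stellate cells. The uninjured log2 fold change was 4.22 ± 0.76 (adjusted p 0.00955, limma) and passed under 14 of 15 alternatives; fitted on the 4 uninjured libraries alone its adjusted p was 0.0591, over a range of 0.00933 to 0.0591. After BDL the fold change between populations was 0.14 ± 0.76, and its sign changed with TMM scaling (-0.01). The difference between the BDL responses, -4.09 ± 1.07, had an adjusted p of 0.415 (limma) and did not pass. For Cox7a1 that difference was -2.95 ± 1.14 with an adjusted p of 0.594 (limma).

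Ndufa4l2, the oxygen-regulated paralog of Ndufa4, was lower in Gli1+ than in stellate libraries after injury. It was at 47.2 and 43.1 CPM in uninjured Gli1+ cells, and 29.3 and 134.2 CPM in the uninjured stellate libraries, against 18.2 and 18 CPM (Gli1+) and 83.7 and 85.8 CPM (stellate) with BDL. The populations overlapped in uninjured liver and did not after BDL, where the log2 fold change was -2.17 ± 0.63 with an adjusted p of 0.0847 (limma), which did not pass. In uninjured liver the value of -0.47 depended on 1 library: without replicate 2 of the stellate cells it was 0.6.

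Cox8b, a muscle and brown-fat isoform, was low everywhere, at 5.26 and 1.93 CPM in uninjured stellate cells and at 0 to 1.11 CPM in the other 6 libraries. Cox6a2, a heart and muscle isoform, was at 7.37 CPM in 1 uninjured Gli1+ library and at 2.04 CPM or less in the other 7. Cox7b2, a testis isoform, had 1 read in all (0.085 CPM in replicate 2 of stellate cells after BDL). Cox8b and Cox6a2 passed the test in no comparison, and Cox7b2 was below the filter.

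**Figure D5:**
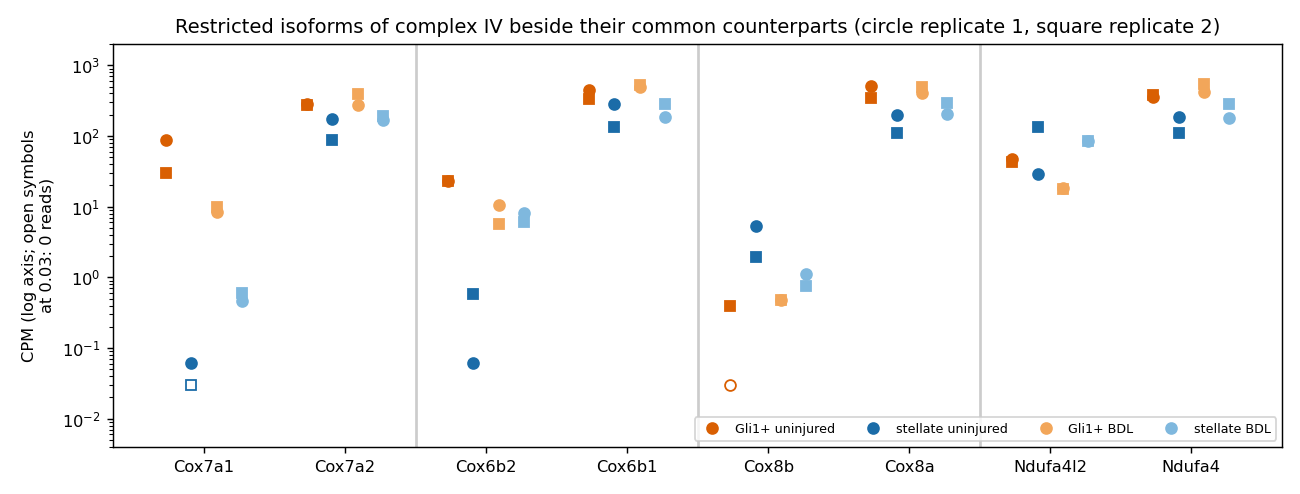
CPM on a log axis of 4 restricted isoforms of complex IV, each left of its common counterpart, circles for replicate 1 and squares for replicate 2 of the 4 groups. Cox7a1 spans from 0 to 88.2 CPM while Cox7a2 spans from 89 to 388.9, and the 2 populations meet after BDL for Cox6b2.

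The mitochondrial subunits differed in the same direction as the nuclear ones. mt-Nd5, a proton-pumping subunit of complex I (chrM:11742-13565), was at 1640 and 1070.5 CPM in uninjured Gli1+ cells against 572.4 and 286.5 CPM in uninjured stellate cells, a log2 fold change of 1.71 ± 0.43 (adjusted p 0.0368, limma); it passed under 3 of 14 alternatives. mt-Nd6, the only subunit read from the other strand, had the largest value, 2.06 ± 0.64, with an adjusted p of 0.0804 (limma). It overlaps the end of mt-Nd5; no source used here gives the strand setting of the counting, and reads in the overlap cannot be told apart. mt-Nd1, mt-Nd2 and mt-Nd4 of complex I had log2 fold changes of 1.39, 1.43 and 1.6, mt-Co1, the oxygen-binding subunit of complex IV, 1.34, and mt-Cytb, the cytochrome b of complex III, 1.07. mt-Nd3 was at 0.47 ± 0.73, from 0.678 to 2.31 CPM.

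The makeup of the mitochondrial messengers analysed differed between libraries as well as their sum. Among the 9 genes analysed, mt-Cytb was the most abundant per length, at 5797 CPM per kb over 8 libraries. Next came mt-Nd1 at 3728 and mt-Co1 at 2212 (uncertain, as its sequence is partly shared). This ranking and the shares below lack mt-Co2, mt-Atp8, mt-Atp6 and mt-Nd4l, and the values of mt-Co3 and mt-Nd3 in them are uncertain. The share of mt-Cytb in the mitochondrial sum was 35.9% and 43.9% in uninjured Gli1+ cells, and 41.7% and 51.4% in the uninjured stellate libraries, against 38.5% and 27.6% (Gli1+) and 35.7% and 28.9% (stellate) with BDL. Replicate 2 of each BDL group had the lowest shares. In those same 2 libraries mt-Nd2 was at 0.366 and 0.331 of the CPM of mt-Cytb, against 0.0854 to 0.213 in the other 6, and mt-Nd4 at 0.424 and 0.361 against 0.103 to 0.273. The relation of these genes to mt-Cytb thus varied more within the BDL groups than between the populations.

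After BDL the comparison of Gli1+ with stellate cells kept its direction with smaller values, and no subunit passed the test. Of 80 nuclear subunits 0 were called higher and 0 lower with limma, where 4.44% and 2.36% of all genes were; edgeR called 0, and 2.13% and 1.65% of all genes. An unadjusted limma p under 0.05 was reached by 22 nuclear and 0 mitochondrial subunits and by 19.6% of all genes. In direction, 77 of 80 nuclear and 8 of 8 mitochondrial subunits were above 0, with medians of 0.63 and 0.82 against 0.23 for all genes; without replicate 1 of the stellate BDL libraries the mitochondrial median was 0.5. Marker sums differed in the same libraries. Hepatocyte markers were at 3593 and 19455 CPM (Gli1+) against 2090 and 2180 CPM (stellate). Cholangiocyte markers were at 15114 and 7286 against 180.8 and 755.9 CPM, mostly Spp1. Among them Krt19 was at 2559 and 1023 against 0.934 and 2.29 CPM. The part of these marker genes' cells in the subunit values was not tested. The Gli1+ libraries lay above both stellate libraries for 56 nuclear and 5 mitochondrial subunits and below both for 2 and 0, where 34.8% and 19% of all genes did so. The lowest adjusted p belonged to Atp5d, a log2 fold change of 1.1 ± 0.28 (adjusted p 0.0566, limma), from 394.5 and 324.3 CPM in Gli1+ cells to 166.4 and 166.4 CPM in stellate cells. Complex V had the highest median of the common nuclear subunits, 0.9, and for 16 of its 17 genes the libraries did not overlap. Atp5a1, the alpha subunit of the catalytic head, was at 977.7 and 737.1 against 383.2 and 433 CPM, a value of 1.06 ± 0.3 that did not pass. The sign of mt-Nd2 in this comparison (0.66) rested on single libraries, at -0.12 without replicate 2 of Gli1+ cells and -0.02 without replicate 1 of stellate cells.

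The response of Gli1+ cells to BDL was small in this gene set. No nuclear or mitochondrial subunit passed the limma test or the edgeR test, and of all genes 0% were called higher and 0% lower by either. An unadjusted limma p under 0.05 was reached by 2 nuclear and 0 mitochondrial subunits and by 11% of all genes. The median log2 fold change was 0.19 over nuclear and 0.45 over mitochondrial subunits against 0.12 over all genes. The 2 BDL libraries lay above both uninjured ones for 26 nuclear and 3 mitochondrial subunits and below both for 9 and 0, where 25.1% and 16.2% of all genes did so. The 2 nuclear genes were Cox7a1, with -2.38 ± 0.81 (adjusted p 0.282, limma), and Atp5f1, a peripheral-stalk subunit, with 0.76 ± 0.27 (adjusted p 0.324, limma). Both medians depended on single libraries. Without replicates 1 and 2 of uninjured cells the nuclear median was 0.32 and 0.06 and the mitochondrial median 0.9 and 0.1; without replicates 1 and 2 of BDL cells they were 0.15 and 0.11, and 0.85 and 0.09. The hepatocyte marker sum went from 1505 and 356.2 to 3593 and 19455 CPM in the same comparison, and its part in these values was not tested.

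In stellate cells the values after BDL lay above those in uninjured liver for most subunits, but none passed the test. Of 80 nuclear subunits 68 were above 0 and of 8 mitochondrial subunits 8, with medians of 0.41 and 1.1 against 0.19 for all genes. Limma and edgeR called 0 in either direction; of all genes, limma called 0.225% higher and 0% lower and edgeR 0.377% and 0%. An unadjusted limma p under 0.05 was reached by 8 of 80 nuclear and 3 of 8 mitochondrial subunits and by 12% of all genes. The BDL libraries lay above both uninjured libraries for 32 nuclear and 5 mitochondrial subunits and below both for 2 and 0, where 27.4% and 12.2% of all genes did so. mt-Nd5 had the lowest adjusted p: from 572.4 and 286.5 CPM it went to 981.5 and 1511 CPM, a log2 fold change of 1.59 ± 0.43 (adjusted p 0.193, limma). The nuclear median moved with single libraries, to 0.61 and 0.19 without replicates 1 and 2 of uninjured cells, and to 0.54 and 0.24 without replicates 1 and 2 of BDL cells; the mitochondrial median moved to 1.64 and 0.63, and to 1.54 and 0.72. Beside these values, the 10 endothelial markers summed to 690.2 and 157.7 CPM before and 2395 and 1739 CPM after BDL, and the hepatocyte markers to 338.8 and 80.4 CPM before and 2090 and 2180 CPM after; their part was not tested.

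The 2 responses were not shown to differ for any subunit. The difference, Gli1+ response minus stellate response, was called for 0 of 80 nuclear and 0 of 8 mitochondrial subunits with limma and with edgeR; of all genes, limma called 0% higher and 0.0122% lower and edgeR 0% and 0.0669%. An unadjusted limma p under 0.05 was reached by 2 nuclear subunits, Cox6b2 and Cox7a1, by 0 mitochondrial subunits and by 7.48% of all genes. Its median was -0.34 over nuclear and -0.71 over mitochondrial subunits, against -0.12 over all genes. With 1 library left out the nuclear median ran from -0.54 (without replicate 1 of uninjured stellate cells) to -0.06 (without replicate 2 of them), and the mitochondrial median from -1.26 to -0.13 without the same libraries.

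Other genes of the pathway were read from lists. Of the 8 subunits and carriers outside the naming rule, 1 was called higher in uninjured Gli1+ cells: Atpif1, the inhibitor that keeps the ATP synthase from running backwards, at 287 and 377 against 135.1 and 82 CPM (1.64 ± 0.36, adjusted p 0.0222, limma). Cox4i1, a main structural subunit of complex IV, was at 908 and 616 against 447.3 and 240.3 CPM (1.19, not passed). Cycs, the cytochrome c gene, was at 2.75 to 7.5 CPM in all 8 libraries. Sequence shared with other genes was not measured for genes outside the naming rule, so the level of Cycs is uncertain. Of 16 complex I assembly factors none was called in any comparison, with a median of 0.67 in uninjured liver; Ndufaf8 and Dmac1, those of highest level, had 1.16 and 0.22. Of 30 assembly factors of the other complexes 1 was called, Cox20, a chaperone of a complex IV core subunit (1.65 ± 0.38, adjusted p 0.027, limma), with a median of 0.63. Of 77 mitochondrial ribosomal proteins, which translate the mitochondrial messengers, 2 were called higher in uninjured liver, Mrpl33 (1.74) and Mrpl54 (1.57). Their median was 0.46 in uninjured liver and 0.51 after BDL. Of all genes, limma called 8.06% higher in uninjured liver. edgeR called 0 genes of any list in this paragraph. With TMM scaling, 0 genes of the assembly and mitochondrial ribosome lists were called in uninjured liver.

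The cytosolic ribosome gave values as high as those of the respiratory chain. Of 76 cytosolic ribosomal protein genes tested, 73 were above 0 in uninjured liver with a median of 1.12, and 75 after BDL with a median of 0.77. Limma called 4 higher in uninjured liver, among them Rpl41 (1.46), Rps3 (1.4) and Rplp0 (1.38), where it called 8.06% of all genes. TMM scaling left 2 of these calls and edgeR 0. The nuclear OXPHOS medians of 0.83 and 0.63 were below the cytosolic ribosome medians, with no test of the difference. The 18 genes of pyruvate dehydrogenase and the citric acid cycle had medians of 0.33 and 0.48 and no call; Idh2 and Mdh2, those of highest level, had 1.07 and 0.64 in uninjured liver.

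Genes upstream of the subunits gave mixed values. The 35 genes of mitochondrial transcription, RNA handling and biogenesis had a median of -0.35 in uninjured liver, with 12 above 0 and 22 below, and 0.47 after BDL, with 28 above 0. Limma called 1 of the 35 higher in each state, where it called 8.06% of all genes higher without injury and 4.44% with BDL. This member was Ppargc1a, the coactivator PGC-1 alpha that raises respiratory gene transcription. It was at 3.02 and 3.42 CPM in uninjured Gli1+ cells, 5.16 and 5.63 CPM in Gli1+ cells after BDL and 0 in all 4 stellate libraries. Its log2 fold changes were 2.08 ± 0.56 without injury and 2.68 ± 0.56 with BDL (adjusted p 0.0479 and 0.0243, limma). edgeR called 0 genes of this list in either state. Set against a floor of 3 reads over the group, Gli1+ levels were at least 38.7-fold higher without injury and at least 52.3-fold higher with BDL. These bounds rest on 94 and 158 Gli1+ reads, and PCR copies are not independent molecules. Nrf1, Gabpa, Yy1 and Esrra, which encode factors of the motifs above, and Tfam, which encodes the packaging protein of mitochondrial DNA, had log2 fold changes of -0.56, -0.43, 0.6, 0.87 and -0.24 in uninjured liver that did not pass.

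Glycolytic and oxygen-regulated genes were read beside the chain because Ndufa4l2 belongs to the latter. Of 22 glycolytic genes 3 were higher in uninjured Gli1+ cells: Aldoc, an aldolase (5.33 ± 0.74), Slc16a3, a lactate exporter (3.89 ± 0.9), and Ldhb, a lactate dehydrogenase subunit (3.81 ± 0.58), with adjusted p of 0.00313, 0.027 and 0.00487 (limma). After BDL Aldoc (4.62) and Tpi1, triosephosphate isomerase (1.52), were called higher. The glycolysis median was 0.57 in uninjured liver and 0.3 after BDL. Of 18 oxygen-regulated genes 4 were called higher in uninjured Gli1+ cells, the 3 largest being Car9, a carbonic anhydrase (5.42), Egln3, a prolyl hydroxylase of the oxygen sensor (5.36), and Vegfa, an endothelial growth factor (4.3), and 1 lower, Epas1, which encodes HIF-2 alpha (-3.46). After BDL Car9 and Egln3 were higher, and Adm, adrenomedullin (-3.06), and Epas1 (-2.61) lower. Of all genes, limma called 8.06% higher and 3.02% lower in uninjured liver, and 4.44% and 2.36% after BDL. edgeR called 2 glycolytic genes higher in uninjured liver and 1 after BDL. Of the oxygen-regulated genes it called 2 higher and 1 lower, then 1 and 1. Cholangiocyte and mesothelial marker sums were higher in Gli1+ libraries in both states, and their part in these values was not tested. Egln3 had no read in uninjured stellate cells and was at 17.9 and 87.5 CPM in uninjured Gli1+ cells, at least 713.8-fold higher against 3 reads over the group; without replicate 2 of the Gli1+ cells the bound was 212-fold. None of these lists had a called member in the response to BDL of either population.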

How the data were processed

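RNA-seq libraries of sorted Gli1+ and stellate cells (8 libraries, 4 groups of 2, grouped by the labels) were read as deposited CPM values per gene; the submitters' processing notes name FastQC, STAR 2.5.2b, featureCounts, DESeq2 and mm10. Dividing by the value of 1 read gave whole reads for 100% of values within 0.1 read. Genes with 1 CPM or more in 2 or more libraries (16446) were fitted with limma 3.58.1 (R 4.3.3) on log2(CPM + 1), with 4 group means over all 8 libraries, trended variance, 4 residual degrees of freedom and Benjamini-Hochberg adjustment over all genes at 0.05. The pseudocount understates changes of low genes. On recovered reads, edgeR 4.0.16 called 822 genes higher and 395 lower in uninjured liver, and 350 and 271 after BDL. The scripts were tested on simulated data. Sequence sharing and positions used GENCODE vM21 on GRCm38, matching 30233 of 30395 identifiers. Named genes were all mitochondrial members, fixed sets of isoforms and core subunits, up to 3 called members per complex, direction and comparison, and of each list up to 3 called genes or, with none, 2 of highest level; Ndufa9, Sdhc, Atp5f1, Atp5l, Cox7c, Ndufb4, Cox4i1, Cycs, Nrf1, Gabpa, Yy1, Esrra and Tfam were added after their values were seen. Members and lists (assembly, mitochondrial transcription and ribosome, citric acid cycle, glycolysis, oxygen-regulated genes, cytosolic ribosome, 7 cell-type marker lists) were chosen with earlier results of these data known.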

Additional observations from a re-analysis of the deposited data

How the results depend on the processing

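The nuclear subunits called higher in uninjured Gli1+ cells numbered 13, and 7 with TMM scaling, 2 with edgeR on recovered reads, 7 with a replicate block and 1 when fitted on those 4 libraries alone; leaving out 1 library gave 2 to 23 higher and 0 to 1 lower. The mitochondrial count of 1 became 0 with TMM, 0 with edgeR, 0 with the replicate block, 0 on the 4 libraries alone and 0 to 2 with a library left out. The uninjured nuclear median of 0.83 was 0.58 with TMM, 0.62 with edgeR and 0.72 to 1.14 with a library left out. After BDL, the nuclear count of 0 became 1 higher on CPM without mitochondrial reads, 3 higher and 1 lower on the 4 BDL libraries alone, and 0 to 1 higher and 0 to 1 lower with a library left out; the median of 0.63 was 0.47 with TMM, 0.48 with edgeR and 0.58 to 0.79 with a library left out. With a library left out, the stellate BDL response had 0 to 1 nuclear call and a nuclear median of 0.19 to 0.61, and the difference of responses a median of -0.54 to -0.064. Signs changed for Cox6b2 between populations after BDL (0.14; -0.0098 with TMM, -0.26 to 0.54 with a library left out), for Ndufa4l2 in the stellate response (0.42; -0.12 with edgeR, -0.66 to 1.5 with a library left out) and between uninjured populations (-0.47; -1.55 to 0.605 with a library left out), and for mt-Nd2 between populations after BDL (0.66; -0.12 to 1.43 with a library left out). The cause of these shifts was not tested, except that fewer libraries entered some fits; where 1 library was left in a group, it was assumed to vary like the other groups. Replicate numbers were not taken as pairs: deviations of same-numbered libraries correlated at 0.0786 and 0.112 between populations and at -0.0518 and 0.00074 between states. CPM without mitochondrial reads could not be computed for the mitochondrial subunits, nor the 4-library fit for the difference of responses. Depth limits the low isoforms, for which 3 reads correspond to 0.156 to 0.266 CPM.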
